A study of Mus musculus with 6 samples.

Results

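The genes described here are the serpins, a family named for serine protease inhibitors, together with the clotting and fibrinolysis genes of the blood plasma. They were chosen by name in the count table: every name that begins with Serpin, except Serping1 and the 3 names that end in -ps, and a set of 21 clotting and fibrinolysis genes. This gave 86 of 34718 genes, 65 of them serpins, and 2 of the serpins kept by the name rule are pseudogenes ending in -ps1. RNA was sequenced from Hepa1-6, a mouse hepatoma cell line grown in culture, in 3 libraries labelled shNC, taken as control, and 3 labelled shZfp207, taken as knockdown of the zinc finger gene Zfp207 by short hairpin. The labels give no number of hairpins, and what a hairpin does besides lowering Zfp207 cannot be told apart from the loss itself. Nor do they say whether the replicates were separate cultures, and the p-values then reflect the spread among these libraries alone, possibly a technical one.

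An inhibitory serpin presents an exposed loop that a protease cuts, and the cut traps the protease in an inactive complex. Some serpins have other roles, among them the hormone carriers Serpina6 and Serpina7 and the collagen chaperone Serpinh1. Hepatocytes make most serpins and clotting factors of plasma. Clotting starts when tissue factor meets factor VII, proceeds through factors X and V to thrombin, and ends in a fibrin mesh made from fibrinogen. Antithrombin, the protein C system and tissue factor pathway inhibitor restrain it, and plasmin, formed from plasminogen by tissue-type or urokinase-type activator, dissolves the mesh. Clade B serpins stay mostly inside cells.

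Total counts ranged from 11933736 to 16248346 per library, and the 86 genes took 0.116% to 0.195% of them. Values per library are in CPM (counts per 1000000 counts of the library) and follow the order of replicates 1, 2 and 3. Zfp207 stood at 141.4, 198 and 216.8 CPM in the controls and 46.8 to 48.1 CPM after knockdown (log2 fold change -1.95 with SE 0.17, edgeR adjusted p = 0.00236). Control replicate 1 stood apart from the other controls, with 10.5% of its counts on mitochondrially encoded genes against 2.67% to 2.89% in control replicates 2 and 3 and 5.61% to 6.0% in the knockdown libraries. The nuclear RNA Malat1 was likewise highest in control replicate 1 and lowest in the other controls, with 330.8, 30.8 and 30.0 CPM in the controls and 104.3, 123.5 and 129.5 CPM after knockdown. Several results that lean on control replicate 1, though not all, are given with and without it. Of 8 hepatocyte markers 6 averaged at least 1 CPM, while Apoh and Ahsg were at or near 0. Their summed level was 1693 to 2648 CPM in control and 4522 to 4836 CPM in knockdown libraries, and 3 of the 8 rose. In bulk RNA a change in the number of cells of a kind and a change in RNA per cell cannot be told apart. Of markers of other cells that make clotting proteins, the platelet genes Gp1ba and Gp9 were at 0 and 4 endothelial markers summed to at most 2.05 CPM. The 4 bile duct markers summed to 114.8 to 209 CPM in control and 98.4 to 103 CPM in knockdown libraries, and 2 of them fell. The 4 leukocyte markers, mostly Cd68, summed to 14.1 to 19.1 and 11.6 to 13.7 CPM. The 5 fibroblast markers summed to 2046 to 2310 and 2702 to 2785 CPM, nearly all from Dcn, with Col1a1 at 0.73 CPM or less in every library, and 1 of them, Pdgfra, fell. The part of these shifts in the results was not tested.

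Most of the family had few or no counts. Of the 86 genes, 35 had no count in any library, 26 had a few counts, at most 27 in 1 library, and 25 had enough to be tested. Of those 25, 19 exceeded the count filter in all 6 libraries. Serpinb5 passed it through the knockdown libraries alone and Serpinb1a through the control libraries alone.

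Among the tested genes 10 were higher in knockdown cells and 0 were lower, by edgeR's quasi-likelihood test with Benjamini-Hochberg adjustment over all genes. Over all 11975 genes tested 9.92% were called higher and 10.7% lower. Among the 10 were F3, F5, Fgb, Proc, Serpina10, Plat, Serpinb5, Serpinb6b and Serpinb9b, which span clotting, its restraint, fibrinolysis and the clade B serpins. For 5 of the 10, Serpina10, Serpinb5, F5 and Proc among them, the rise was at least 2-fold, against 3.05% of all genes, and 0 were called lower at that size, against 2.81%. The calls of 5, among them Serpina10, Plat, F3 and Serpinb6b, were kept in each of the 6 fits that left 1 library out, as were those of 2.33% of all genes in the upward direction. At an unadjusted p under 0.05, 1 tested gene, Serpina1b, was lower, and DESeq2 and limma also called 0 lower. The median log2 fold change was 0.20 over the 25 genes and -0.03 over all genes tested. CPM did not overlap between the groups for 12 genes in the upward and 4 in the downward direction, where 21.5% and 23.4% of all genes did so, or 44.9% in either direction. Without Serpinb5 and Serpinb1a, which entered the test through 1 group alone, 9 of 23 genes were higher, 4 of them at least 2-fold, and 11 and 3 did not overlap.

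**Figure D1:**
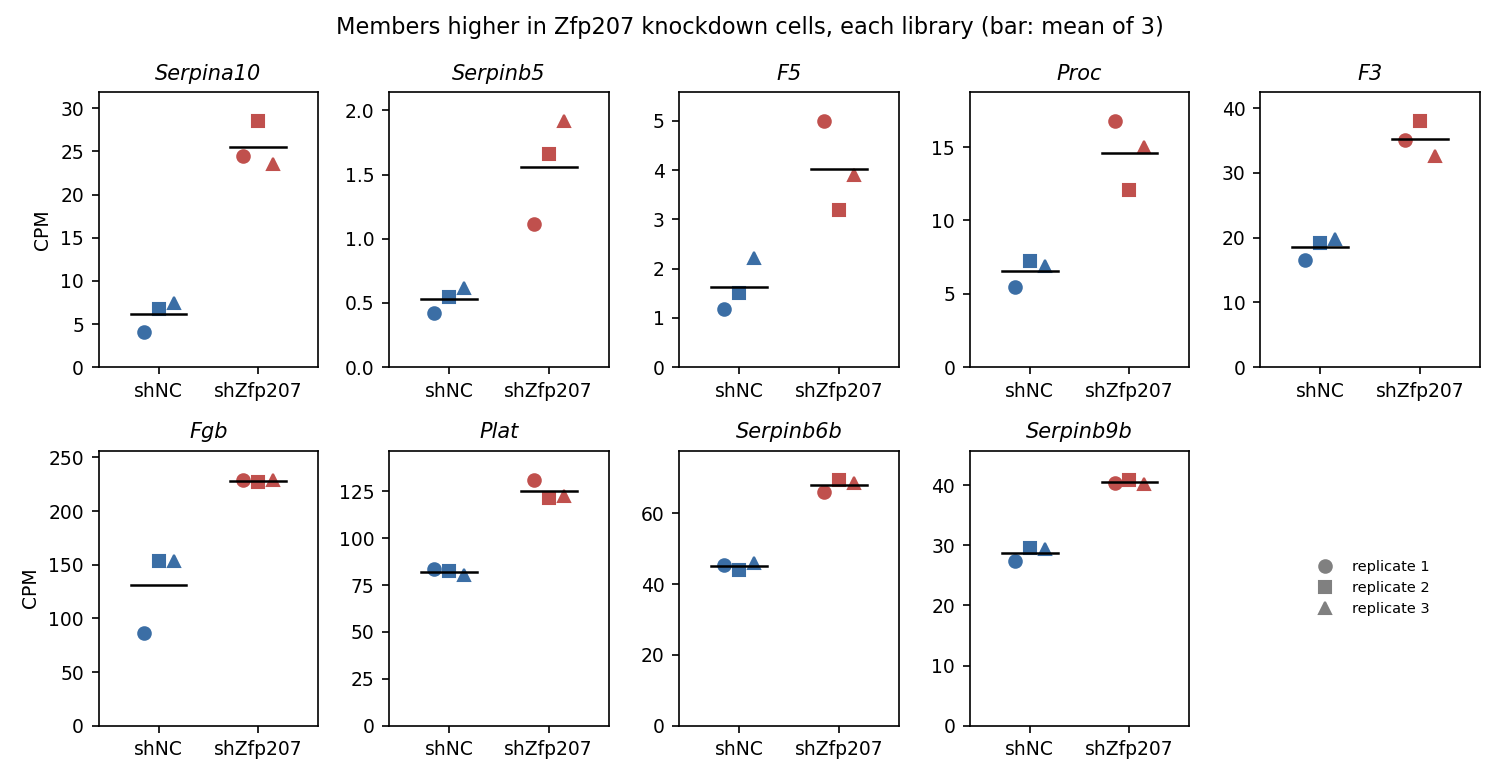
CPM of 9 genes called higher in knockdown cells, one panel per gene and each vertical axis starting at 0, with 3 control libraries (shNC) and 3 knockdown libraries (shZfp207) as points and the group mean as a bar. In every panel the lowest knockdown library lies above the highest control library, and for Fgb control replicate 1, at 86.1 CPM, lies well below the other controls.

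The upstream DNA of some of these genes is shown first because it sets the 3 fibrinogen genes, which are neighbours on chromosome 3, beside one another, and adds F3 and Serpinb5, called genes that share AP-1 letters with Fgb. RefSeq promoter windows (GRCm38.p6) matched 69 of the named genes, 20 of them tested and 6 of them called. The 250 bases before each start site were searched on both strands for an HNF1 motif (GTTAAT), an HNF4 motif (AAAGTCC), a C/EBP motif (TTGCNNAA) and an AP-1 motif (TGANTCA), whose factors act in hepatocytes or, for AP-1, after growth and stress signals. The last 180 bases before the start site are printed 5′ to 3′ on the gene's strand, with every match in capitals.
Fgb, chr3:83049864-83050043, minus strand: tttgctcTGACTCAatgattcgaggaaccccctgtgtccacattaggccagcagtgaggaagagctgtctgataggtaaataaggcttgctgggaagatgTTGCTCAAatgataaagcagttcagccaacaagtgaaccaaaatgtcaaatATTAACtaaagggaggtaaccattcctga
Fga, chr3:83025973-83026152, plus strand: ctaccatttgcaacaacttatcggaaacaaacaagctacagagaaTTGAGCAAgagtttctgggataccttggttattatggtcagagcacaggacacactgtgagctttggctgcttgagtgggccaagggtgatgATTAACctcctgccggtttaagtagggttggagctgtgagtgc
Fgg, chr3:83007544-83007723, plus strand: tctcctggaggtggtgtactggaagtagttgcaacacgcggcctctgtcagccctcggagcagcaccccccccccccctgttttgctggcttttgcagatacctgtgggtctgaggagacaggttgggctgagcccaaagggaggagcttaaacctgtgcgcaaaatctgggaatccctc
F3, chr3:121723357-121723536, plus strand: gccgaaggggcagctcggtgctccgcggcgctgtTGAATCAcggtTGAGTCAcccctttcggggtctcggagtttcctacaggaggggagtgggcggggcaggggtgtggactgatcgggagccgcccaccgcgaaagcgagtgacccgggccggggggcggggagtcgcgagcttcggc
Serpinb5, chr1:106860995-106861174, plus strand: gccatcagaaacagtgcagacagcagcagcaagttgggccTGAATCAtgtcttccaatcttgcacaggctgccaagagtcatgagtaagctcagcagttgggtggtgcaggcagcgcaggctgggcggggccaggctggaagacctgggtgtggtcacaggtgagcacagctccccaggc

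Fgb and Fga both held the HNF1 letters close to the start, at positions -29 to -24 and -43 to -38, and a C/EBP match, at -80 to -73 and -135 to -128, while the Fgg window held none of the motifs. The AP-1 letters stood at -146 to -140 and -135 to -129 in F3, at -173 to -167 in Fgb and at -140 to -134 in Serpinb5, counted from the RefSeq start site. They were present in 3 of the 6 called genes with a window, or 2 of 5 without Serpinb5, and in 7 of the 20 tested genes, against 6.75% of 32851 mouse promoter windows. F3 and Serpinb5 were printed because they hold these letters. F5, Serpinb6b and Serpinb9b, also called and with a window, held none of the motifs. Serpina1b, Serpinb2, Serpinb7 and Serpinb8 held the AP-1 letters but were not called with all libraries. In the clade B cluster of chromosome 1 the AP-1 letters were present in 7 of 11 genes, including all 4 tested ones, Serpinb2, Serpinb5, Serpinb7 and Serpinb8. They read TGAGTCA in Serpinb7 and Serpinb8 and TGAATCA or TGATTCA in the other matched genes. Of the 4 tested genes only Serpinb5 was called with all libraries. The clade B cluster of chromosome 13 had the letters in 0 of 14 genes, and 2 of its genes, Serpinb6b and Serpinb9b, were called. HNF1, HNF4 and C/EBP letters were in 4, 1 and 6 of the 20 tested genes and in 6.43%, 3.58% and 9.56% of all windows. A match to these letters is a description and does not show that a factor bound there.

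The counts by role given from here on rest on few genes each, where 9.92% of all genes tested were called higher. Of the procoagulant genes, 2 of 5 tested rose. F3, which encodes tissue factor, the membrane protein that starts clotting (chromosome 3, 121723537 to 121735048), had 16.6, 19.1 and 19.8 CPM in the controls and 35.1, 37.9 and 32.7 CPM in the knockdown libraries. The groups did not overlap, and the level was 1.92-fold higher (log2 fold change 0.94 with SE 0.122, edgeR adjusted p = 0.00565). Its call was kept with each library left out. F5, the cofactor that speeds thrombin formation (chromosome 1, 164151838 to 164220277), was far lower, with 14, 22 and 36 counts in control and 76, 48 and 57 in knockdown libraries, or 1.17, 1.51 and 2.22 against 4.99, 3.18 and 3.9 CPM. All knockdown libraries were above all controls (log2 fold change 1.29 with SE 0.316, edgeR adjusted p = 0.0326). Without control replicate 2 or knockdown replicate 1, 2 or 3 the adjusted p of F5 was 0.0902, 0.126, 0.0782 and 0.113.

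The intrinsic pathway genes had few reads. F9, the zymogen missing in haemophilia B, had 1.26, 3.08 and 3.02 CPM in control and 1.38, 1.59 and 1.44 CPM in knockdown libraries, so that control replicate 1 lay below the knockdown libraries and the other controls above them (log2 fold change -0.74 with SE 0.382, edgeR adjusted p = 0.215). Without control replicate 1 the value for F9 was -1.04 with an adjusted p of 0.00617, a fall in that fit. F8, the cofactor missing in haemophilia A, had 5 to 15 counts in control and 12 to 18 in knockdown libraries (0.63 with SE 0.439, edgeR adjusted p = 0.353). F11 had 27, 16 and 6 counts in control and 13, 16 and 21 in knockdown libraries (-0.10 with SE 0.612, edgeR adjusted p = 0.928), and without control replicate 1 its value was 0.63 (adjusted p = 0.323). Other zymogens made by liver were at the edge of detection: the prothrombin gene F2 had 1, 2 and 8 counts in control and 13, 2 and 7 in knockdown libraries, and F7, F10 and F12 had 0 in all 6. A count of 0 allows up to 3 counts, or 0.185 to 0.251 CPM depending on the library, covering counting error only. F13b, Klkb1 (plasma kallikrein) and Kng1 (kininogen) had 0 to 4 counts per library. In the annotation 91.8% of the 50-base stretches of Klkb1 transcripts also occur in transcripts listed under another gene identifier, so its reads could be lost or split.

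Fibrinogen is built from 3 chains, and only the gene of the beta chain was substantially expressed. Fgb (chromosome 3, 83040141 to 83049863) had 86.1, 153.7 and 153.7 CPM in the controls and 229, 226.7 and 228.9 CPM in the knockdown libraries. The knockdown libraries agreed closely and stood above every control (1.75-fold, log2 fold change 0.81 with SE 0.225, edgeR adjusted p = 0.0468). The spread of the controls came from replicate 1, and without it the log2 fold change was 0.58 (adjusted p = 5.01e-05). In each of the other 5 fits with a library left out Fgb lost its call, with adjusted p of 0.0634 and 0.0715 without control replicates 2 and 3 and 0.134, 0.139 and 0.142 without knockdown replicates 1 to 3. Against its 1027 to 3489 counts, Fga had 4, 0 and 0 counts in control and 2, 0 and 0 in knockdown libraries, and Fgg had 2, 0 and 11 and 2, 1 and 1. The 3 genes lie within 42.1 kb, and no exonic sequence of Fgb overlaps another gene or recurs in another transcript.

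Of the anticoagulant genes 2 of 4 tested rose. Serpina10 encodes the protein Z-dependent inhibitor of factor X (chromosome 12, 103614786 to 103631444). It had 4.11, 6.78 and 7.45 CPM in the controls and 24.4, 28.5 and 23.6 CPM in the knockdown libraries, the highest fold among the tested members (4.17-fold, log2 fold change 2.06 with SE 0.231, edgeR adjusted p = 0.00397). The lowest knockdown library was thus more than 3 times the highest control library. The value ranged from 1.84 to 2.23 with each library left out, and the call was kept in all 6 fits. Serpina10 lies at one end of the alpha-class serpin cluster of chromosome 12, which holds 25 of the genes in 799.5 kb. There 18 genes had no count, and Serpina10 and Serpina1b were the only ones tested.

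Proc, the gene of protein C, the protease that inactivates factors V and VIII (chromosome 18, 32123129 to 32139570), had 5.45, 7.26 and 6.89 CPM in control and 16.7, 12.1 and 15 CPM in knockdown libraries. The groups did not overlap (2.24-fold, log2 fold change 1.17 with SE 0.186, edgeR adjusted p = 0.00912), and the adjusted p was 0.0541 without knockdown replicate 3. Pros1, the gene of the cofactor of protein C, did not follow it: it had 116.2, 83.2 and 79.6 CPM in control and 70.4, 74.2 and 72 CPM in knockdown libraries (log2 fold change -0.35 with SE 0.153, edgeR adjusted p = 0.152). Every knockdown library was below every control, and without control replicate 1, the highest, Pros1 was called lower at -0.17 (adjusted p = 0.0446). Tfpi, the inhibitor of tissue factor, had 8 to 15 counts in control and 4 to 13 in knockdown libraries (log2 fold change -0.58 with SE 0.497, edgeR adjusted p = 0.448). Antithrombin was nearly absent at the RNA level, with 7, 1 and 2 counts of Serpinc1 in control and 1, 0 and 4 in knockdown libraries. Serpind1, the heparin cofactor II gene, had 7, 8 and 2 counts against 13, 27 and 8, and Serpina5, the protein C inhibitor gene, had 0 in all libraries.

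In the plasminogen system the gene of the tissue-type activator rose. Plat, the gene of tissue-type plasminogen activator (chromosome 8, 22757744 to 22782847), had 83.5, 82.7 and 80.3 CPM in control and 131.1, 121.7 and 122.3 CPM in knockdown libraries. Its controls were nearly equal, replicate 1 included, and the level was 1.53-fold higher (log2 fold change 0.62 with SE 0.080, edgeR adjusted p = 0.00558). The call of Plat was kept in all 6 fits that left 1 library out, at adjusted p of up to 0.0439.

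The further genes of this system described here were low or did not pass the threshold. Plau, the urokinase gene, had 3, 0 and 1 counts in control and 0 in the knockdown libraries, and Plg, the plasminogen gene, had 1 count in control replicate 3 and 0 elsewhere. Serpinb2, whose product inhibits urokinase, had 20.5, 23 and 22.2 CPM in control and 18.5, 22.8 and 23.2 CPM in knockdown libraries, an overlapping range, and 12.4% of its exonic sequence is shared with Serpinb10 on the same strand (log2 fold change -0.01 with SE 0.134, edgeR adjusted p = 0.961). Serpinf2, the antiplasmin gene, had 3.57 to 4.93 CPM in control and 3.94 to 5.11 CPM in knockdown libraries (-0.01 with SE 0.22, edgeR adjusted p = 0.99). Serpine2, the protease nexin-1 gene, had 40.9, 13.3 and 13.2 CPM in the controls and 24.7, 20.3 and 22 CPM in knockdown libraries (0.02 with SE 0.441, edgeR adjusted p = 0.986). Serpine2 and the mitochondrial share were both highest in control replicate 1, lowest in the other controls and in between in the knockdown libraries, and without control replicate 1 its log2 fold change was 0.76 (adjusted p = 0.00131). The part of RNA quality in this was not tested.

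**Figure D2:**
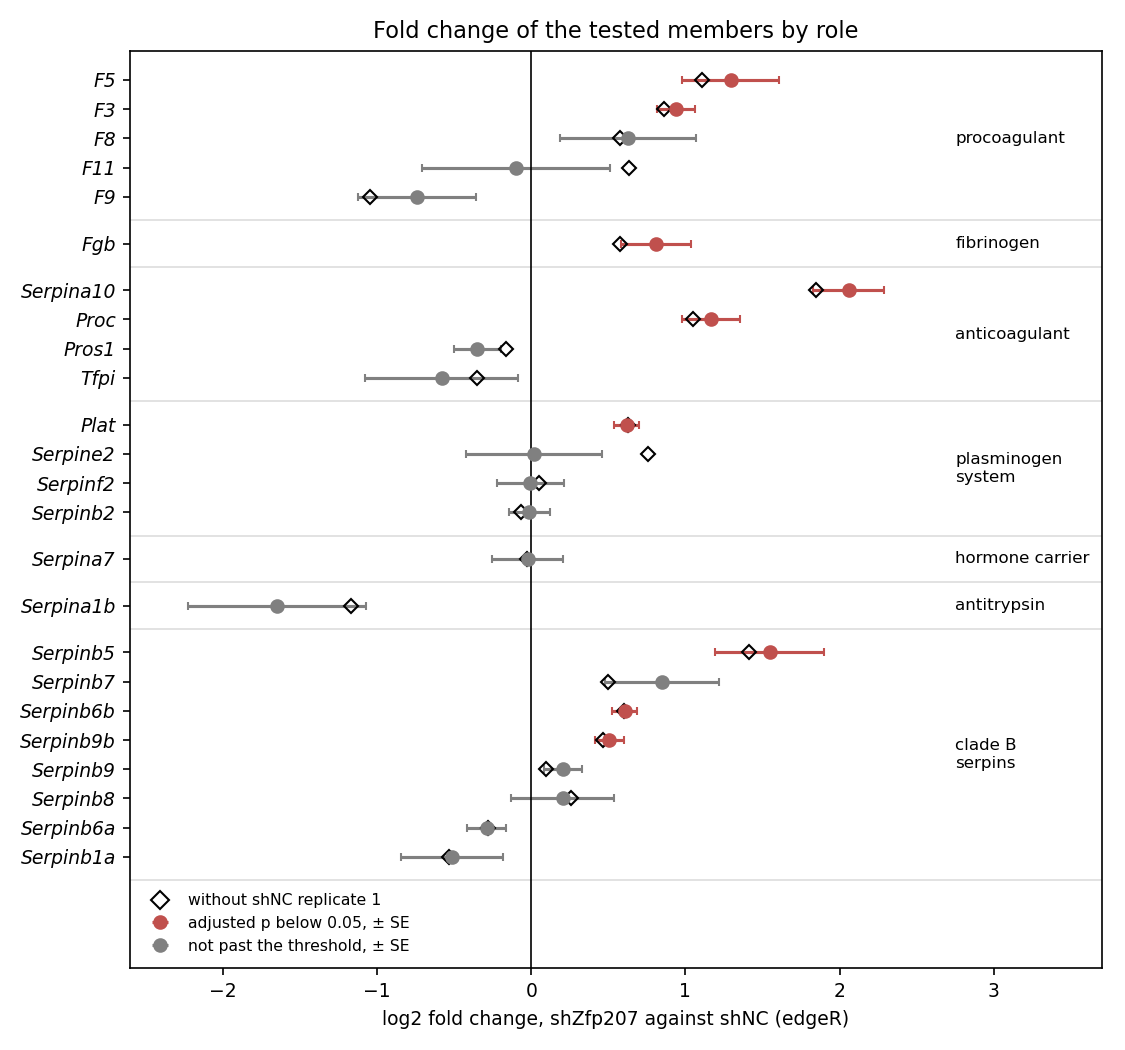
Log2 fold change of 24 tested genes, knockdown against control, grouped by role on the vertical axis, with filled points for all 6 libraries (red where the edgeR adjusted p was below 0.05, bars ± SE) and open diamonds for the fit without control replicate 1. The 9 red points lie to the right of 0, and Serpine2 and F11 show the widest gap between point and diamond, from 0.02 to 0.76 and from -0.10 to 0.63.

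The best known liver serpins had few or no counts in these cells. Of the 6 Serpina1 genes, which encode alpha-1 antitrypsins, the inhibitors of neutrophil elastase, only Serpina1b could be tested. It had 32, 16 and 20 counts in control and 3, 12 and 8 in knockdown libraries, or 2.68, 1.1 and 1.23 against 0.197, 0.796 and 0.547 CPM. The ranges did not overlap, but the difference did not pass (log2 fold change -1.65 with SE 0.576, edgeR adjusted p = 0.0881). Without control replicate 1, the highest, the value for Serpina1b was -1.17 (edgeR adjusted p = 0.0844). In the annotation 29.5% of the 50-base stretches of Serpina1b transcripts recur in other genes, mainly its paralogs, so its counts are uncertain. For Serpina1a, Serpina1c, Serpina1d and Serpina1e these shares were 57.6%, 79.3%, 50.9% and 34.6%. The handling of multiply mapped reads is not given, so counts of this cluster, single or summed, could be too low. The summed counts of Serpina1a to Serpina1e were 38, 16 and 22 against 3, 12 and 8 (-1.82 with SE 0.611, edgeR adjusted p = 0.0796). The 11 Serpina3 genes, related to antichymotrypsin, summed to 0, 1 and 2 counts in control and 0 in knockdown libraries. Serpina7, the thyroxine-binding globulin gene, had 1.85 to 2.15 CPM in control and 1.78 to 2.06 CPM in knockdown libraries (-0.02 with SE 0.228, edgeR adjusted p = 0.956), and Serpina6, the corticosteroid-binding globulin gene, had 0 counts. Serpinh1, the gene of the collagen chaperone HSP47, had 0 counts in all 6 libraries, and Serpinf1, the PEDF gene, had at most 2. Serpini1, the neuroserpin gene, had 1 to 7 counts per library.

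Of the clade B serpins other than Serpinb2, 3 of 8 tested rose. Serpinb5, 1 of the 3, passed the count filter through the knockdown libraries alone, which favoured an upward call. Serpinb1a, 1 of the 8, passed it through the control libraries alone. Serpinb6b (chromosome 13, 32965209 to 32979067) had 45.3, 44 and 46 CPM in control and 66, 69.4 and 68.6 CPM in knockdown libraries. Both groups were tight and apart (1.52-fold, log2 fold change 0.61 with SE 0.084, edgeR adjusted p = 0.00644), and the call was kept with each library left out. Serpinb9b (chromosome 13, 33027416 to 33041884), related to the granzyme B inhibitor Serpinb9, had 27.3, 29.5 and 29.3 CPM in control and 40.4, 40.9 and 40.2 CPM in knockdown libraries. It was 1.42-fold higher (log2 fold change 0.51 with SE 0.0934, edgeR adjusted p = 0.0139), with adjusted p of 0.064, 0.0746 and 0.0757 without knockdown replicates 1, 2 and 3. A gene on the opposite strand, Gm36099, covers 8.3% of its exons. Serpinb5, the maspin gene, first described in breast epithelium (chromosome 1, 106861173 to 106883348), had 5, 8 and 10 counts in control and 17, 25 and 28 in knockdown libraries. The groups did not overlap (log2 fold change 1.55 with SE 0.354, edgeR adjusted p = 0.0267), but of the 6 fits with a library left out it was called only in the one without control replicate 1, at an adjusted p of 0.0177. The others gave 0.0737 and 0.0679 without control replicates 2 and 3 and 0.0584, 0.109 and 0.125 without knockdown replicates 1 to 3.

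Their relatives moved less or otherwise. Serpinb9, which lies in the same cluster and inhibits granzyme B, the killing protease of cytotoxic lymphocytes, had 29.2, 38 and 35.6 CPM in control and 39, 39.1 and 39.5 CPM in knockdown libraries. Every knockdown library lay just above the highest control, and the difference did not pass (log2 fold change 0.20 with SE 0.125, edgeR adjusted p = 0.287). Without control replicate 1, the lowest, the value for Serpinb9 was 0.0988 (edgeR adjusted p = 0.282). The ratio of Serpinb9b to Serpinb9 in deposited FPKM, a level per length whose ratio does not depend on scaling between libraries, was 1.76, 1.47 and 1.55 in control and 1.95, 1.97 and 1.92 in knockdown libraries, with no overlap (two-sided exact permutation p = 0.1, the smallest possible). Serpinb6a had 338.7, 277.7 and 380.3 CPM in control and 268.8, 264.4 and 275.1 CPM in knockdown libraries (-0.29 with SE 0.127, edgeR adjusted p = 0.154). Genes on the opposite strand, among them Nqo2 and Ripk1, cover 29.3% of its exons, so its level is uncertain. The ratio of Serpinb6b to Serpinb6a went from 0.335 ± 0.0463 to 0.614 ± 0.0215 (SD, n = 3 each, two-sided exact permutation p = 0.1), again without overlap. Both ratios reached this smallest value, which after Benjamini-Hochberg adjustment over the 2 is still 0.1. The size of each ratio rests on the gene lengths behind the deposited FPKM, which are not given. Its change between the groups does not depend on them.

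**Figure D3:**
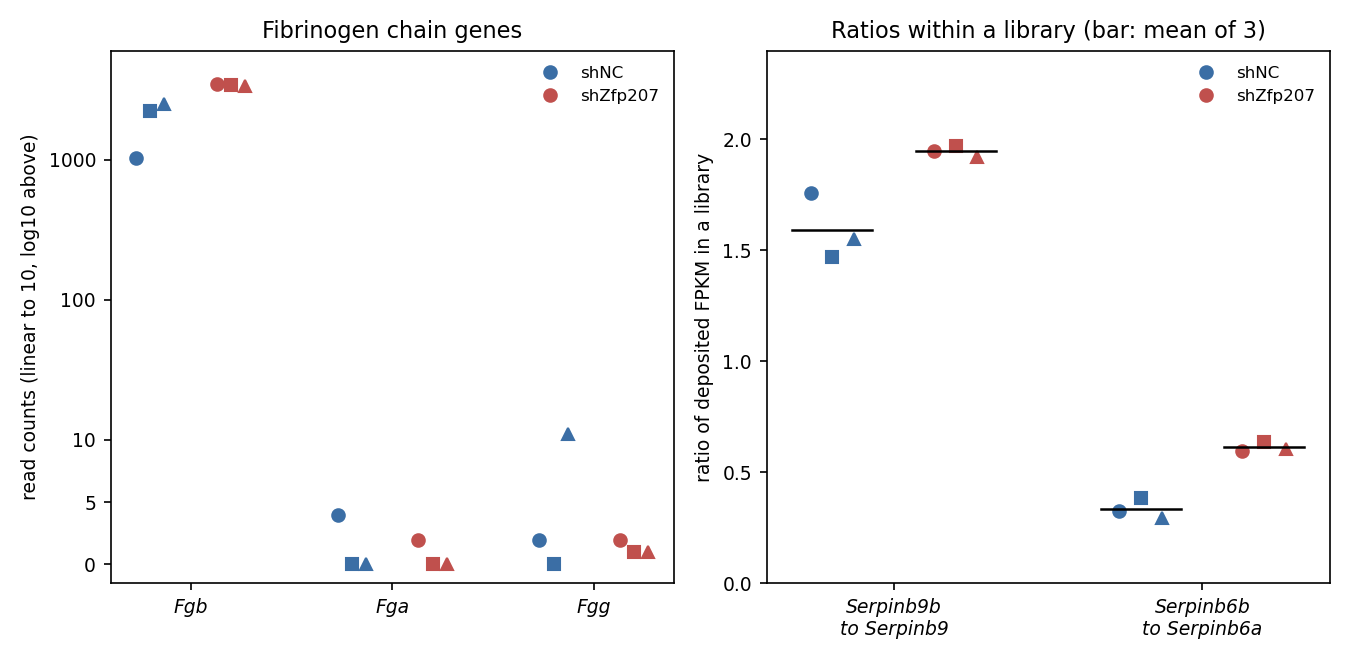
Left, read counts of the 3 fibrinogen chain genes in each library, on an axis that is linear to 10 and log10 above, with controls in blue, knockdown libraries in red and replicates 1, 2 and 3 as circle, square and triangle. Right, ratios of deposited FPKM within each library with group means as bars. Fgb has 1027 to 3489 counts while Fga and Fgg reach at most 4 and 11, and the ratio of Serpinb9b to Serpinb9 lies between 1.47 and 1.76 in control and between 1.92 and 1.97 in knockdown libraries.

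Serpinb7, known as megsin from kidney mesangial cells, had 7.96, 24.1 and 21.4 CPM in the controls and 32.2, 30.6 and 33.2 CPM in knockdown libraries. Every knockdown library was higher, control replicate 1 lay far below its group, and the difference did not pass the threshold (log2 fold change 0.85 with SE 0.37, edgeR adjusted p = 0.151). Without that library the value was 0.50 (adjusted p = 0.00364), in a fit that called 52.1% of all genes. The part of control replicate 1 in the missed call was not tested. Serpinb8 had 28.2, 17.2 and 32.4 CPM in control and 22.8, 22.8 and 43.1 CPM in knockdown libraries, a spread within groups larger than the difference (0.20 with SE 0.332, edgeR adjusted p = 0.702). Serpinb1a had 9 to 12 counts in control and 7 to 10 in knockdown libraries (-0.51 with SE 0.328, edgeR adjusted p = 0.327). Serpinb11 lay under the count filter, with 1, 0 and 2 counts in control and 6, 20 and 15 in knockdown libraries. It could pass such a filter only through the knockdown libraries.

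Without control replicate 1, 27 of the 86 genes passed the filter, 13 of them called higher and 2 lower, where 26.1% of all 12108 genes were called in each direction and 52.1% in either. All 10 genes called with all libraries were called there too, joined upward by Serpinb7, Serpine2 and Serpinb11 and downward by F9 and Pros1. Serpinb11 and, among the 10, Serpinb5 entered that fit through the knockdown libraries alone. The count filter thus favoured an upward call for both, and the 13 include them. Of the 10, 8 were lower in control replicate 1 than in both other controls, Plat and Serpinb6b being the exceptions. The share of all genes with this order was not computed, so the 8 cannot be set against it. Over all genes control replicate 1 correlated with the other controls at r of 0.9495 and 0.9498 in log2 CPM, against 0.989 between those. The mitochondrial share was highest in control replicate 1, lowest in control replicates 2 and 3 and in between in the knockdown libraries. The part of RNA quality in the calls of the 10 genes was not tested.

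Levels per length were compared in the deposited FPKM, and the gene lengths behind those values are not given. Set beside CPM, they imply a shorter length for Plat than its 6241 exonic bases in the annotation. For Serpinb6a, Serpinb6b and Serpinb9 they imply longer ones than their 5409, 2262 and 3494 exonic bases. The order of genes below therefore holds for the deposited values only and could change with other lengths. In control cells Serpinb6a (37.95 ± 5.9 FPKM, SD, n = 3), Fgb (34.3 ± 10.2) and Plat (32.4 ± 0.673 FPKM) had overlapping ranges, and Pros1 (20.25 ± 4.4) and Serpinb6b (12.5 ± 0.286 FPKM) followed. Pros1 lay below Plat in every library but overlapped Fgb through control replicate 1, and Serpinb6b lay below Pros1 without overlap. In knockdown cells Fgb (59.7 ± 0.341) and Plat (49.3 ± 2.07) stood before Serpinb6a (30.8 ± 0.615) and Serpinb6b (18.9 ± 0.486 FPKM). Serpina10 went from 1.52 ± 0.441 to 6.35 ± 0.65 FPKM.

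Genes that process, anchor or meet these proteins were examined as 4 further lists. Of 11 tested genes of the vitamin K cycle, processing and export of clotting factors 1 rose and 1 fell. Ggcx, the carboxylase that activates vitamin K-dependent factors such as protein C and protein S, fell from 39.7 ± 2.71 to 23 ± 0.238 CPM on the scale used for testing (SD, n = 3 each, log2 fold change -0.79 with SE 0.1, edgeR adjusted p = 0.00533), and the site-1 protease gene Mbtps1 rose by 0.37 on the log2 scale (adjusted p = 0.0491). Ggcx stayed called whichever library was left out, whereas Mbtps1 reached an adjusted p of 0.18. Furin and Tpst2 had log2 fold changes of 0.37 and -0.49 with adjusted p of 0.144 and 0.164.

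Of 11 tested receptors and surface cofactors 3 rose and 0 fell. Lrp1, the endocytic receptor that clears serpin-protease complexes, had 53.6, 71.8 and 72.3 CPM in control and 200.7, 180.8 and 182 CPM in knockdown libraries (log2 fold change 1.52 with SE 0.141, edgeR adjusted p = 0.00281), with the call kept in all fits that left a library out. Procr, the endothelial protein C receptor gene, rose by 0.53 and the syndecan gene Sdc4 by 0.35 (adjusted p = 0.0336 and 0.025), each called in 1 of the 6 such fits. Eno1, whose product binds plasminogen at the surface, had -0.42 (adjusted p = 0.0711).

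Of 7 tested other plasma proteins 1 rose, the hyaluronan-binding protease gene Habp2, from 233 ± 17 to 331.7 ± 39.8 CPM (SD, n = 3 each, log2 fold change 0.51 with SE 0.119, edgeR adjusted p = 0.0283, up to 0.111 with a library left out). Itih2, Hgfac and Vwf had log2 fold changes of 0.68, -0.14 and -0.67 with adjusted p of 0.197, 0.49 and 0.505. Of 8 tested target proteases and other inhibitors 1 rose and 3 fell. Tmprss2, a serine protease of the cell surface, rose by 0.85 (adjusted p = 0.00449) and stayed called whichever library was left out. Genes on the opposite strand cover 26.8% of the exons of the cathepsin L gene Ctsl. Ctsl, the Kunitz inhibitor gene Spint2 and the metalloprotease inhibitor gene Timp1 had log2 fold changes of -0.91, -0.37 and -0.48 (adjusted p = 0.0244, 0.0337 and 0.0408), with adjusted p of up to 0.104, 0.148 and 0.163 when a library was left out. The medians of the 4 lists were -0.13, 0.18, -0.06 and -0.37, beside -0.03 over all genes tested and 20.6% of all genes called in either direction.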

How the data were processed

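RNA of 6 Hepa1-6 libraries was compared, 3 of shNC and 3 of shZfp207, grouped by their titles. The deposited counts are whole-number reads per gene, and the FPKM values deposited by the authors are levels per transcript length and library size, per the file headers. mm10, featureCounts 1.5.0-p3 and HISAT2 2.0.5 appear in the submitters' processing notes. Their annotation, strand setting and handling of multiply mapped reads: not given in the sources used here.

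Differences in counts were assessed by edgeR 4.0.16 under R 4.3.3 (filterByExpr, TMM, quasi-likelihood model with group as its term, Benjamini-Hochberg over all genes, threshold 0.05). The SE is the log2 fold change over the square root of F. Exonic overlap and 50-base stretches shared between transcripts came from GENCODE M21 (GRCm38, the assembly of mm10). The procedure was tested on simulated data. Named were Zfp207, each other tested gene, untested genes with a main role in clotting or made by liver, and up to 4 genes with the smallest p of each further list. 1 gene of the set is counted but not reported here by itself. The genes and lists were chosen with earlier results of these data known. Replicates were checked against counting noise, and no pair agreed within it. Alternatives comprised scaling by RLE or upper quartile, other filters, DESeq2 1.42.0, limma 3.58.1 on log2(FPKM + 1), a replicate block, summed paralogs, each library left out and, chosen after seeing the data, leaving out mitochondrially encoded genes.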

Additional observations from a re-analysis of the deposited data

How the results depend on the processing

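RLE and upper-quartile scaling, a filter of at least 1 CPM in 3 libraries, DESeq2, limma on log2(FPKM + 1), summed paralogs and leaving out mitochondrially encoded genes each kept the calls of all 10 genes called higher. Upper-quartile scaling moved the share of upward calls among all called genes from 48.2% to 39.1%. With no filter beyond 1 count, Serpinb5 and Fgb had adjusted p of 0.051 and 0.0501. The replicate block, in which libraries share only a number, called 6 genes higher and 987 genes in all against 2466. Same-numbered libraries deviated together at r of -0.008 to 0.0527, and not every library correlated best with its own number. With 1 library left out, 5 to 13 genes were higher, 0 to 2 lower and 534 to 6313 of all genes called. The lowest counts came without knockdown replicate 3 and the highest without control replicate 1. Zfp207 kept its direction and call throughout.

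Signs turned only for genes with an adjusted p of at least 0.702 with all libraries, although Serpine2 was called without control replicate 1 (adjusted p = 0.00131). F11 went from -0.10 to 0.0628 with the replicate block and ranged from -0.55 to 0.63 with a library left out. Serpinf2 was 0.0022 with RLE scaling, 0.0004 with no filter, 0.0056 by DESeq2, 0.0112 without mitochondrially encoded genes and -0.1416 to 0.0881 with a library left out. Serpine2 was -0.0654 with upper-quartile scaling and -0.25 to 0.76 with a library left out. Serpinb2 was 0.0048 without mitochondrially encoded genes and -0.0728 to 0.0907 with a library left out, Serpina7 -0.0749 to 0.0391 and Serpinb8 -0.18 to 0.40. The cause of each turn was not tested. Low counts limit Serpinb1a, Serpinb5, F5, F8, F9, F11, Tfpi, Serpina1b and Serpina7.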
